A study of Mus musculus with 7 samples.

Results

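The enzymes that make and inactivate steroid hormones were examined in cultured mouse mammary glands, over 10 genes: Cyp11a1, Cyp19a1, Hsd3b1, Hsd11b1, Hsd17b1, Hsd17b2, Hsd17b4, Hsd17b7, Srd5a1 and Sult1e1. Array probes were assigned to them by RefSeq accession, which gave 1 probe for each of 9 genes and none for Hsd17b7, among 34967 gene probes in all. The study asked how the estrogen receptors ERα and ERβ contribute to mammary growth and to the lesions that the carcinogen DMBA (7,12-dimethylbenz[a]anthracene) induces in mammary gland organ culture. RNA was hybridized to 7 CodeLink arrays, 1 per group, so that no group had a replicate array, no p-value is given and no difference has a replicate check.

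The groups were αERKO glands (ESR1 KO), βERKO glands (ESR2 KO) and C57 wild-type (WT) glands with DMBA, each after 24 days of culture, WT glands without DMBA after 10 and after 24 days, and Balb/c glands after 24 days with and without vitamin D5. All were glands of 4-week-old female mice, whose stated pretreatment is 1 µg estrogen with 1 mg progesterone for 9 days in one protocol text and 25 ng EGF with 1 mg progesterone for 5 days in another. Culture ran for 10 days with insulin, prolactin, aldosterone and hydrocortisone, and the 24-day glands then had 14 days of insulin alone, so hydrocortisone was in the medium of the 10-day glands until the end. The protocol gives 2 µg/ml DMBA for 24 h on day 3. The titles name DMBA for the WT glands only and are silent on it for the knockout and Balb/c glands. For its array comparison, the paper describes WT, αERKO and βERKO glands pretreated with EGF and progesterone and given the carcinogen in culture. For the Balb/c glands DMBA is left unstated, as is the dose of vitamin D5. Balb/c glands without vitamin D5 are called untreated here, which says nothing of DMBA. Both knockouts are germline lines from a C57BL6/129SV background set against C57 controls, so genotype and background cannot be told apart. For the WT and knockout groups, RNA of 5 mice was stated to be pooled. The Esr1 probe was near background on the αERKO array, as on 4 others. The Esr2 probe, at a log2 level of 0.87, was brightest on the array of ESR2 KO glands, which is therefore called the array labelled βERKO.

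Steroid hormones are made from cholesterol in steps shared among tissues. CYP11A1 cleaves the cholesterol side chain, HSD3B enzymes complete progesterone-type steroids, and aromatase (CYP19A1) turns androgens into estrogens. In target tissues such as breast, other enzymes set how much active hormone reaches a receptor: HSD17B enzymes interconvert weak and potent estrogens and androgens, SRD5A1 reduces testosterone and progesterone, SULT1E1 sulfates and silences estrogens, and HSD11B1, an enzyme of fat and stromal cells, regenerates active glucocorticoid from its inert keto form.

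A level is given here as log2 of a probe's intensity over the median gene probe of its array, so a level of 0 is the median probe, and levels of different probes are not set against each other. A spot was good where the scanner software called it so, and near background otherwise. The median intensity was 39.1 to 53.0 over a local background of 80 to 83, between 68.4% and 74.2% of probes were good on an array, and the lowest good level lay between -1.88 and -1.47. Of the 9 probes, those of Hsd11b1 and Hsd17b4 were good on all 7 arrays, that of Cyp19a1 on 6, that of Hsd17b1 on 4, that of Srd5a1 on 3 and that of Hsd17b2 on 2. Those of Cyp11a1, Hsd3b1 and Sult1e1 were good on 1 array each. The probes of glucocorticoid regeneration and of the peroxisomal enzyme were thus the ones measured throughout, and those of estrogen and androgen formation lay close to the limit of detection.

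**Figure D1:**
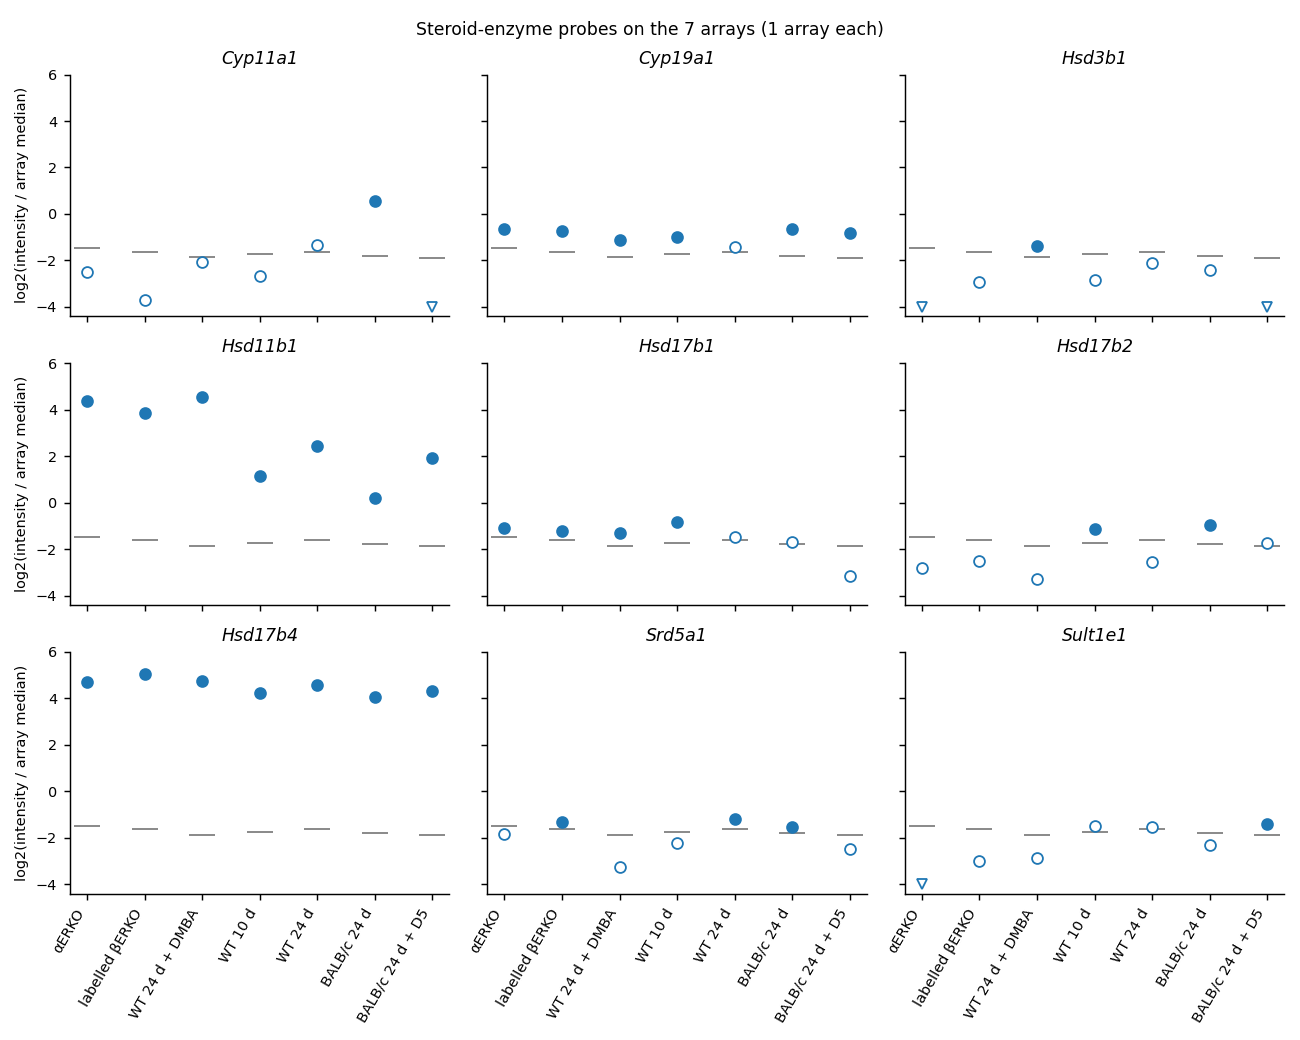
Log2 level over the array median (vertical axis) of the 9 members with a probe on each of the 7 arrays (horizontal axis, 1 array per group), where filled points are good spots, open points are near background, open triangles at -4 stand for lower values and grey dashes are the lowest good level of each array. Hsd11b1 spans 0.22 to 4.56 and Hsd17b4 only 4.08 to 5.07, while the other 7 stay close to the dashes.

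Hsd11b1 (probe GE34586) varied most among the members measured on every array. Its level was 4.56 in WT glands with DMBA, 4.37 in αERKO glands and 3.86 on the array labelled βERKO. It was 2.43 in WT glands after 24 days without DMBA and 1.17 after 10 days. In Balb/c glands it was 1.92 with vitamin D5 and 0.22 without. The 3 arrays of the ERα and ERβ comparison were therefore the highest, and even the lowest of them lay 1.43 above the highest of the other 4, or 2.69-fold. The whole span of 4.35, or 20.3-fold, was larger than that of 98.6% of the 18695 probes good on all 7 arrays, whose median span was 0.97. In background-subtracted intensity the probe ran from 58.5 in untreated Balb/c glands to 1219 in WT glands with DMBA, well clear of the lowest good intensities of 13.7 to 14.6.

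With 1 array per group, the closest available measure of error was the SD of log2 ratios between different probes of the same accession on the same 2 arrays. In the order of Hsd11b1 levels, WT glands with DMBA and αERKO glands differed by 0.19, less than that SD of 0.61. Hsd11b1 in αERKO glands stood 0.51 above the array labelled βERKO, also within the SD of 0.65. Every later step in the order was larger than its SD, at 1.43 from the array labelled βERKO to the WT 24-day array (SD 0.39), 0.51 to Balb/c with vitamin D5 (SD 0.36), 0.75 to the WT 10-day array (SD 0.28) and 0.95 to untreated Balb/c (SD 0.31). This SD holds the error of single probes and their spots only. It holds none of the error that all probes of an array share and none of the spread between mice.

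The 7 comparisons between arrays share arrays with each other, so they are given side by side. A member or probe was counted as over 2-fold when its ratio passed 2-fold either way and it was good on at least 1 of the 2 arrays. Where it was near background on the other array, the ratio has only a lower bound, computed from the higher of the lowest good level there and the probe's own level.

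Neither the αERKO array nor the array labelled βERKO differed over 2-fold from WT glands with DMBA in any member good on both arrays. Between αERKO glands and WT glands with DMBA, 1 of 5 members passed 2-fold, against 25.8% of all probes, and between the array labelled βERKO and the same WT array 2 of 6 did, against 15.3%. Between the knockout arrays 0 of 5 did, against 30.1%. The members past 2-fold were Hsd3b1, lower on both knockout arrays, and Srd5a1, higher on the array labelled βERKO, and each was near background on 1 array of its pair, with bounds no larger than 1.49-fold. Hsd11b1 stood at -0.19 in αERKO glands and -0.70 on the array labelled βERKO relative to WT, Hsd17b4 at -0.06 and 0.31, Cyp19a1 at 0.50 and 0.42, and Hsd17b1 at 0.21 and 0.10. Of these 8 log2 ratios, that of Hsd11b1 on the array labelled βERKO was the only one above the SD of its comparison, which was 0.61 for αERKO and 0.46 for βERKO, and the sign of both αERKO ratios of Hsd11b1 and Hsd17b4 depended on how arrays were scaled.

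Culture with DMBA went with more Hsd11b1 transcript. The paper describes EGF pretreatment for the WT glands with DMBA, and which pretreatment the WT glands without DMBA had is not settled. In this pair, DMBA and pretreatment therefore cannot be told apart. The Hsd11b1 level was 4.56 with DMBA and 2.43 without at 24 days, a log2 ratio of 2.13 or 4.38-fold, and 1.28% of the probes good on both arrays had a ratio as high. In all, 2 of 6 members passed 2-fold, against 18.6% of probes. The other was Srd5a1, good at -1.19 without DMBA and near background at -3.26 with it, at least 1.61-fold lower. Hsd17b4 differed by 0.19, within the SD of 0.41.

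Time in culture went with more Hsd11b1 as well. The 10-day glands ended in insulin, prolactin, aldosterone and hydrocortisone, and the 24-day glands in insulin alone. Time and the change of medium therefore cannot be told apart. From 10 to 24 days without DMBA, the level went from 1.17 to 2.43, a ratio of 1.27 or 2.41-fold, as high as in 0.867% of probes, although it fell to 0.93 with normexp background correction. In this comparison 3 of 6 members passed 2-fold, against 12.4% of probes. Besides Hsd11b1 these were Srd5a1, at least 1.46-fold higher at 24 days, and Hsd17b2, which inactivates estradiol and testosterone by oxidation and was at least 1.38-fold lower. Both were good on 1 of the 2 arrays only.

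Vitamin D5 in Balb/c glands went with a ratio for Hsd11b1 of 1.70, or 3.25-fold, from 0.22 to 1.92, and only 0.141% of probes good on both arrays were as high. In this comparison 2 of 7 members passed 2-fold, against 12.2% of probes. The other was Cyp11a1, good at 0.56 in untreated Balb/c glands and at least 5.46-fold lower with vitamin D5. Cyp11a1 was near background on all 6 arrays other than untreated Balb/c, where the mean of its spot was 161 but the median 103 over a local background of 87, a gap that shows uneven pixels within that 1 spot. Hsd17b4 differed by 0.23 and Cyp19a1 by -0.16, each within the SD of 0.30.

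Strain was compared between untreated Balb/c and WT glands at 24 days, for which DMBA is not stated in the Balb/c title. Hsd11b1 was 4.64-fold lower in Balb/c glands, with a log2 ratio of -2.21 and 0.431% of probes as low, and the ratio was -1.48 with normexp background correction. Here 3 of 6 members passed 2-fold, against 18.5% of probes, and the other two were Cyp11a1, at least 3.75-fold higher in Balb/c glands on the uneven spot, and Hsd17b2, at least 1.58-fold higher. Of all counts past 2-fold that rest on 1 good spot, only those of Cyp11a1 also had a bound over 2-fold.

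**Figure D2:**
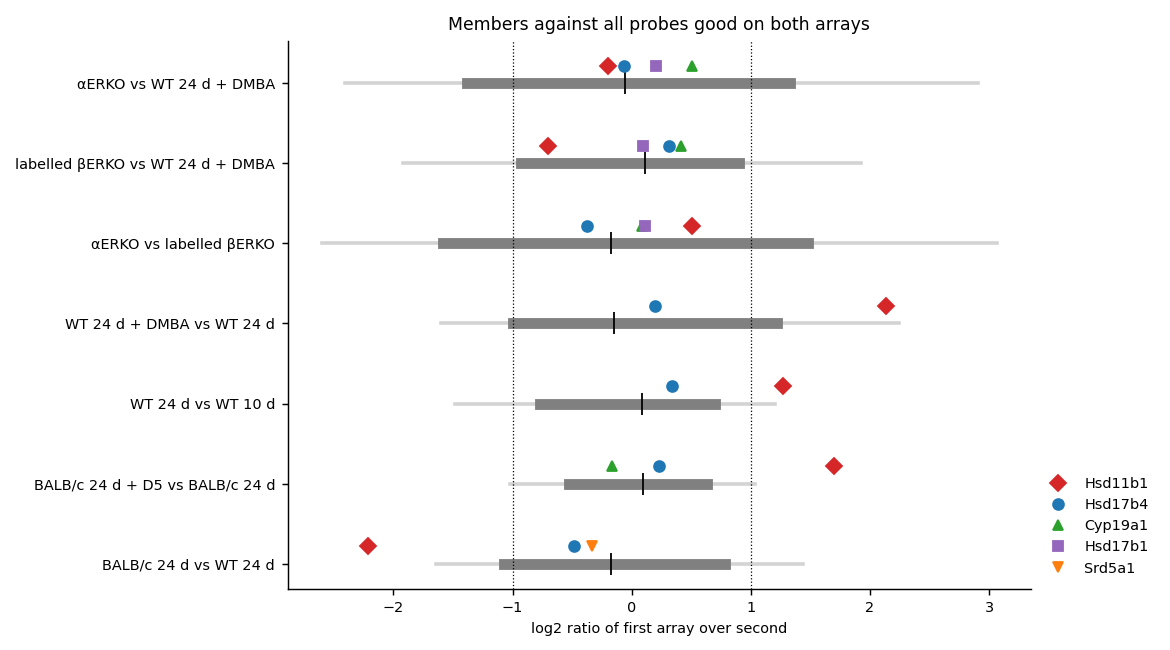
Log2 ratio of the first array over the second (horizontal axis) in each of the 7 comparisons (rows), for members good on both arrays (coloured points) over all probes good on both, with thick grey bars from the 5th to the 95th percentile, thin bars from the 1st to the 99th, a tick at the median and dotted lines at 2-fold. Hsd11b1 is inside the bars in the 3 comparisons with knockouts and lies at 2.13, 1.27, 1.70 and -2.21 in the other 4, with the last 3 beyond the thin bars.

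Hsd17b4 (probe GE34590), a peroxisomal enzyme that oxidizes estradiol and also shortens very long fatty acids, was bright throughout. Its level was 4.69 in αERKO glands, 5.07 on the array labelled βERKO and 4.76 in WT glands with DMBA. It was 4.22 in WT glands at 10 days and 4.56 at 24 days, and 4.08 and 4.31 in Balb/c glands without and with vitamin D5. No step between neighbours in this order, the largest being 0.31, exceeded the SD of its pair of arrays. Between arrays further apart, its ratio was 0.34 from 10 to 24 days (SD 0.33) and -0.48 in untreated Balb/c against WT glands (SD 0.39). Both passed the SD, but with other processing they ranged from 0.20 to 0.34 and from -0.48 to -0.12. Its span of 0.99 was close to the median span of 0.97, with 51.0% of probes spanning less.

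Cyp19a1 (probe GE34920) was detected but dim. Its level was -0.63 in αERKO glands, -0.71 on the array labelled βERKO and -1.13 in WT glands with DMBA. It was -0.98 in WT glands at 10 days and near background at -1.43 at 24 days, and -0.64 and -0.80 in Balb/c glands without and with vitamin D5. These levels lay within 0.80 of each other, and its intensity of 16.7 to 32.3 was close to the lowest good intensity of an array.

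Of the HSD17B enzymes near the limit, Hsd17b1 (probe GE35569), which reduces estrone to estradiol, was good at -1.11 in αERKO glands, -1.22 on the array labelled βERKO, -1.31 in WT glands with DMBA and -0.82 in WT glands at 10 days. It was near background at -1.49 in WT glands at 24 days, -1.68 in untreated Balb/c glands and -3.15 with vitamin D5. Hsd17b2 (probe GE34588) was good at -1.15 in WT glands at 10 days and -0.96 in untreated Balb/c glands, and near background from -3.28 to -1.73 on the other 5 arrays. On the 3 arrays of the ERα and ERβ comparison, Hsd17b1 was thus good on all and Hsd17b2 on none, which at these intensities does not show that Hsd17b2 was absent.

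The remaining members were at the limit of detection. Srd5a1 (probe GE1399820) was good at -1.30 on the array labelled βERKO, -1.19 in WT glands at 24 days and -1.52 in untreated Balb/c glands, and near background from -3.26 to -1.85 elsewhere. Hsd3b1 (probe GE34591) was good at -1.40 in WT glands with DMBA only, and near background from -11.66 to -2.10 elsewhere. Sult1e1 (probe GE42411) was good at -1.38 in Balb/c glands with vitamin D5 only, at least 1.33-fold above untreated Balb/c, and near background from -5.61 to -1.48 elsewhere. Cyp11a1 (probe GE37489), good on the untreated Balb/c array alone, was between -7.31 and -1.34 on the other 6. The level of -11.66 for Hsd3b1 in αERKO glands is a value set for an intensity below 0 and has no order.

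Because HSD11B1 needs NADPH from hexose-6-phosphate dehydrogenase (H6pd), which works beside it in the endoplasmic reticulum, and because C/EBPα is a known activator of its gene in fat and liver cells, both were set beside it. They are on lists written for the pathway and were singled out after their values were seen. H6pd had a level of 5.74 in αERKO glands, 5.50 on the array labelled βERKO and 5.34 in WT glands with DMBA, against 3.42 and 3.98 in WT glands at 10 and 24 days and 3.16 and 3.40 in Balb/c glands without and with vitamin D5. It was 1.36 higher with DMBA, and a second H6pd probe was 2.83-fold higher, but with vitamin D5 it differed by only 0.23. Like Hsd11b1, H6pd had its lowest level on the 3 arrays of the ERα and ERβ comparison over 2-fold above its highest elsewhere, as did 245 probes in all (1.31%).

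Cebpa had levels of 4.21, 3.78 and 4.10 in αERKO glands, on the array labelled βERKO and in WT glands with DMBA, 1.67 and 2.90 in WT glands at 10 and 24 days, and 1.09 and 0.99 in Balb/c glands without and with vitamin D5. It was thus 1.19 higher with DMBA and 1.23 higher at 24 than at 10 days, but differed by -0.10 with vitamin D5. Cebpb, on the same list of regulators, went another way between the knockout arrays. Its level was 2.88 in αERKO glands and 5.43 on the array labelled βERKO, or 5.85-fold lower in αERKO glands, where Hsd11b1 was 0.51 higher.

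Markers of several cell types differed in the same comparisons as Hsd11b1, and also among the arrays of the ERα and ERβ comparison. The summed level of the 9 adipocyte markers with a probe, of 10 listed, ran from 1817 to 3481 times the median probe on the 3 arrays of the ERα and ERβ comparison and from 327 to 1230 on the other 4. That of 8 fibroblast markers ran from 74.3 to 436 and from 14.5 to 47.6, and no marker on either list had an intensity at or below 0. With DMBA, the median log2 ratio was 1.70 over 9 adipocyte markers and 4.13 over 6 fibroblast markers. It was 2.18 over 6 endothelial markers, all over 2-fold higher, 1.73 over 5 macrophage markers, of which 4 were over 2-fold higher, and -0.68 over 8 luminal epithelial markers, of which Krt8, Krt18 and Krt7 were over 2-fold lower. From 10 to 24 days it was 2.10 for adipocyte markers and -0.40 for fibroblast markers. With vitamin D5 it was -0.50 for 8 adipocyte markers, of which 1 was higher, and 0.76 for 7 fibroblast markers, of which 6 were higher. Thus Adipoq, the fat hormone adiponectin, went from 4.66 to 2.71 while Hsd11b1 was 3.25-fold higher. Dcn, a collagen-binding proteoglycan of stroma, went from 3.47 to 4.35. Between untreated Balb/c and WT glands, where Hsd11b1 was lower, the median was -1.83 over 8 adipocyte markers, 0 of them higher. It was 0.77 over 6 fibroblast markers, 5 of them higher, and Dcn was 4.87-fold higher in Balb/c glands. On the array labelled βERKO relative to WT glands with DMBA, the median was -1.73 over 8 fibroblast markers and -0.67 over 9 adipocyte markers. In αERKO glands these medians were 0.46 and 0.35 relative to the same WT glands, and 1.90 and 0.81 relative to the array labelled βERKO. Hsd11b1 stood at -0.70, -0.19 and 0.51 in these comparisons, in that order. In whole glands, fewer cells of a type and less RNA per cell cannot be told apart, and the part of cell makeup in these differences was not tested. Skeletal muscle markers summed to 2307 in αERKO glands, 51.6 on the array labelled βERKO and 8.53 to 10.6 elsewhere.

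**Figure D3:**
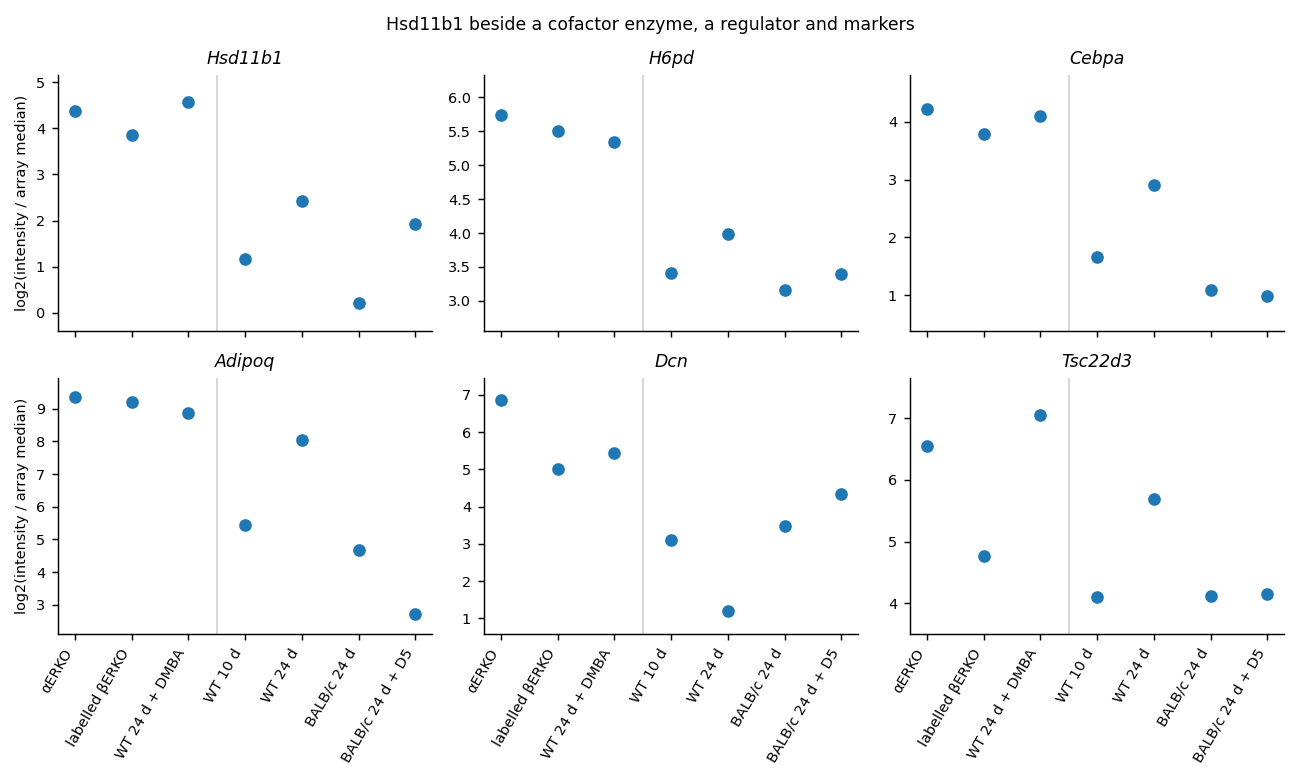
Log2 level over the array median (vertical axes, each with its own range) of Hsd11b1, H6pd, Cebpa, the adipocyte marker Adipoq, the fibroblast marker Dcn and the glucocorticoid-induced Tsc22d3 on the 7 arrays (horizontal axis), all good spots, with the 3 arrays of the ERα and ERβ comparison left of the grey line. Hsd11b1, H6pd, Cebpa, Adipoq and Dcn are each higher left of the line than right of it. With vitamin D5 Hsd11b1 and Dcn are higher while Adipoq is lower. In untreated Balb/c glands against WT glands at 24 days without DMBA, Hsd11b1 and Adipoq are lower while Dcn is higher.

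The stretch before the Hsd11b1 start site and that of H6pd are shown because these genes are the enzyme and its partner, whose levels were higher together with DMBA. The sequences are those of RefSeq on GRCm38.p6, 250 bases ending just before the start, 5′ to 3′ in the direction of the gene. They lie on the minus strand at chr1:193242361-193242610 for Hsd11b1 and chr4:150003237-150003486 for H6pd. Capitals mark matches, on either strand, to the C/EBP motif TTNNGNAA and to the hexamer TGTTCT of glucocorticoid response elements. They also mark the core GCGTG bound by the aryl hydrocarbon receptor. Whether DMBA acts on these genes through that receptor was not tested.
Hsd11b1: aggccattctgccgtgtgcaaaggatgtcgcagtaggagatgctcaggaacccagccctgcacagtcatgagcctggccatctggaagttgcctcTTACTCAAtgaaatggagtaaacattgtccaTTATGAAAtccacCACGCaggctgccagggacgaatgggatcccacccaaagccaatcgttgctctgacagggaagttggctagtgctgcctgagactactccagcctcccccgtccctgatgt
H6pd: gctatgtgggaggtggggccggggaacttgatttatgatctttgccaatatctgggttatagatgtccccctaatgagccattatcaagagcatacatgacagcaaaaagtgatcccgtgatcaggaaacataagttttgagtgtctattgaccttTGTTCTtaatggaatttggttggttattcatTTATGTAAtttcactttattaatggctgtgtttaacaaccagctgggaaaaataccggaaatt

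Hsd11b1 held 2 C/EBP matches, starting at -155 and -124 from the start site, and 1 match to GCGTG at -111 on the reverse strand. H6pd held a C/EBP match at -63 and TGTTCT at -94, with 2 more C/EBP matches at and after the start, and no GCGTG. Over 32851 promoter windows of 300 bases, 250 before and 50 after the start, 40.7% held the C/EBP motif, 32.4% GCGTG, 19.0% TGTTCT and 0.0700% the full palindromic estrogen response element. A match is a description of the letters and not a bound site. Cyp11a1 had 2 promoter windows, Cyp19a1 had 3, and Hsd3b1, Srd5a1 and Sult1e1 had 1 each. None of these held TGTTCT or the full estrogen response element. C/EBP matches lay at -132 for Cyp11a1, -6 for Cyp19a1, -167, -156 and 2 for Hsd3b1, -6 for Srd5a1 and -170 for Sult1e1. GCGTG was at -32 for Srd5a1. Hsd17b7, which has no probe here, had 1 window, with TGTTCT at -208 on the reverse strand and no full estrogen response element. That window also held a C/EBP match at -247 and GCGTG at -99 and 3.

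Over the 7 arrays, the named genes whose probes followed Hsd11b1 most closely were Cs, citrate synthase (Pearson r 0.998), Csl, a near copy of Cs whose signal may not be separable from it (0.994), and Prag1 (0.993). With 7 points such values are common, and 481 of 9830 probes ranked (4.89%) had r over 0.9. H6pd had r 0.953, Cebpa 0.932 and Adipoq 0.806. For Hsd17b4 the closest were Inhbe (0.992), Inf2 (0.991) and Scn7a (0.986), with 279 probes (2.84%) over 0.9. All probes of an array share its scaling and RNA pool, so these values describe the arrays and carry no p.

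Glucocorticoid-responsive genes bear on the product of HSD11B1, and 13 of 14 listed had a probe. With DMBA, 1 of 13 was over 2-fold higher and 0 lower, and the median log2 ratio was -0.41 against -0.15 for all probes. From 10 to 24 days 4 were higher and 0 lower. With vitamin D5 1 was higher and 0 lower, and between untreated Balb/c and WT glands 0 were higher and 6 lower. In αERKO glands 0 were higher and 6 lower than in WT glands with DMBA, and on the array labelled βERKO 1 was higher and 2 lower. As shares of the 13, these counts were 7.69% with DMBA against 18.6% of all probes, 30.8% with time against 12.4%, 7.69% with vitamin D5 against 12.2%, 46.2% for strain against 18.5%, 46.2% in αERKO glands against 25.8% and 23.1% on the array labelled βERKO against 15.3%. Fkbp5, a chaperone induced by the glucocorticoid receptor, stood at 3.44 in WT glands with DMBA and 2.54 in WT glands at 24 days but between -0.31 and 0.33 on the other 5 arrays. Tsc22d3, which encodes the anti-inflammatory protein GILZ, stood at 7.06 and 5.70 in the same WT glands, 6.54 in αERKO glands, and between 4.11 and 4.76 elsewhere. Fkbp5 was therefore low on both knockout arrays, where Hsd11b1 was high, while Tsc22d3 was not in its low range in αERKO glands. Both genes were also in their low ranges in WT glands at 10 days, which had hydrocortisone until the end. Whether any of these levels follow from HSD11B1 was not tested.

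Upstream and downstream of the members, 4 further lists covered cholesterol delivery with electron donors, other steroidogenic enzymes, other hydroxysteroid dehydrogenases and reductases, and steroid hydroxylation and conjugation. Between αERKO glands and WT glands with DMBA these lists had, in that order, 2 of 8, 3 of 11, 2 of 7 and 4 of 15 tested genes over 2-fold, against 25.8% of all probes. Between the array labelled βERKO and WT glands they had 1 of 8, 2 of 12, 2 of 8 and 8 of 16, against 15.3%. With DMBA the counts were 1 of 8, 2 of 11, 1 of 9 and 2 of 14, against 18.6%, and with vitamin D5 0 of 9, 2 of 15, 2 of 11 and 1 of 13, against 12.2%. From 10 to 24 days they were 1 of 9, 3 of 11, 3 of 9 and 4 of 14, against 12.4%, and between untreated Balb/c and WT glands 2 of 8, 2 of 12, 4 of 10 and 6 of 14, against 18.5%. The list of hydroxylation and conjugation had its highest median log2 ratio on the array labelled βERKO relative to WT glands with DMBA, 0.59 against 0.11 for all probes good on both arrays. Such counts rest partly on dim probes, as those of the members do.

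The genes of steroid hydroxylation and inactivation described next were chosen for their large ratios after the values were seen, and do not stand for their lists. Cyp1b1, which hydroxylates estradiol, had a level of 2.13 in αERKO glands against 6.98 on the array labelled βERKO, 5.06 in WT glands with DMBA and 5.64 to 7.47 on the other 4 arrays. Akr1c18, which inactivates progesterone, stood at 0.58 in WT glands with DMBA and 4.08 without, and was highest in untreated Balb/c glands at 6.06. Sult1a1, a phenol and estrogen sulfotransferase, was 5.70 in αERKO glands, 3.21 and 3.16 in WT glands at 24 days with and without DMBA, and near background at -4.26 at 10 days. Cyp27a1, a sterol hydroxylase, was 3.74 in αERKO glands and between -0.85 and 1.27 elsewhere.

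Star, which carries cholesterol to CYP11A1, was 2.95 on the array labelled βERKO and at most 0.07 on the other 6, while Cyp11a1 was near background on the array labelled βERKO. The other 7 markers of adrenal or ovarian steroidogenic cells with a probe summed to 4.57 on that array and to 4.19 to 7.51 elsewhere. Of these, Nr5a1 was good at 1.38 and Mc2r at -0.32 there, and Cyp17a1, Cyp21a1, Inha, Foxl2 and Lhcgr were near background. Nr5a1 lay between 1.17 and 1.62 on all 7 arrays.

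**Figure D4:**
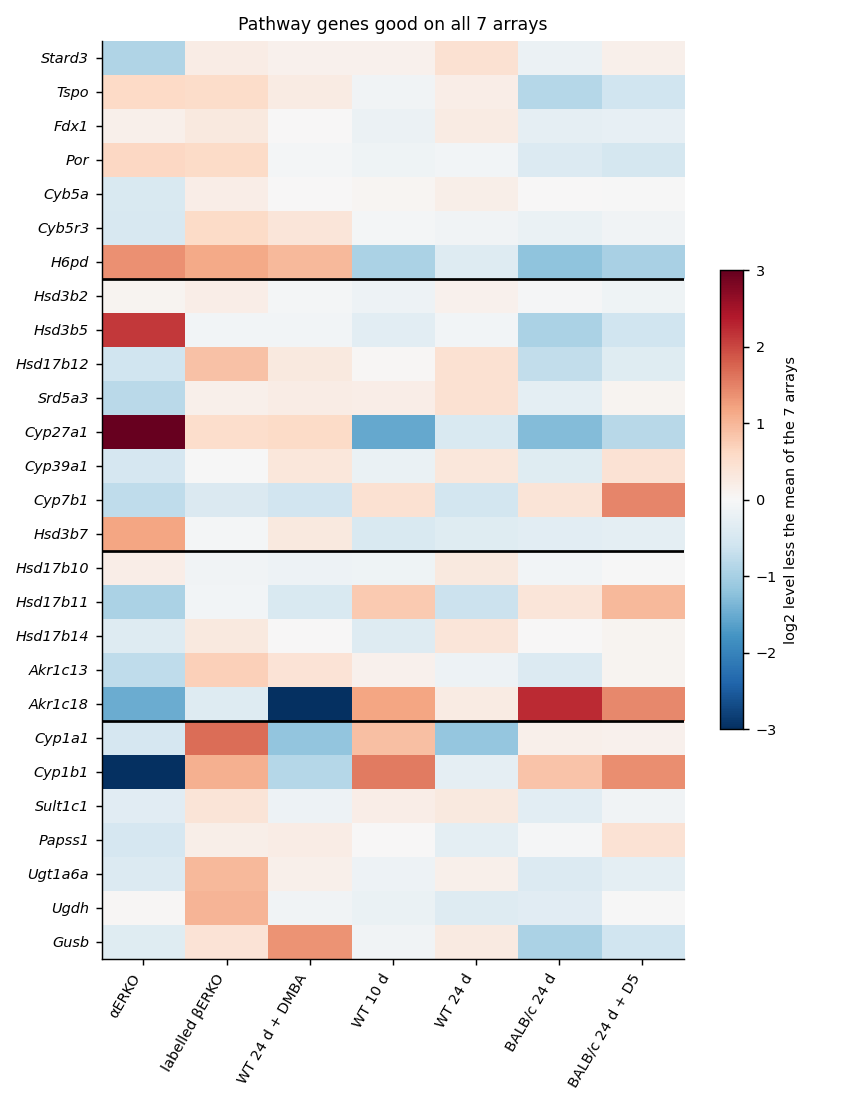
Log2 level less the mean over the 7 arrays (colour, which ends at 3 and -3) of the 27 genes of 4 pathway lists whose probe was good on every array (rows), by array (columns), with black lines between, from the top, cholesterol delivery and electron donors, other steroidogenic enzymes, other hydroxysteroid dehydrogenases and reductases, and steroid hydroxylation and conjugation. H6pd is higher on the 3 left columns than on the rest, and Akr1c18 is lowest in WT glands with DMBA.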

How the data were processed

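For each array the authors pooled RNA, hybridized biotinylated cRNA and scanned 1 CodeLink Mouse Whole Genome array, and deposited a spot intensity that is the mean signal less the median local background, with a quality call. Intensities of gene probes were divided by the array median, without 320 negative and 300 positive control spots. Before log2 was taken, the lowest positive value of an array replaced its values at or below 0. RefSeq's table (GRCm38.p6) named 14763 of 15553 probes with a RefSeq accession. Where a listed gene had more than 1 probe, the brightest on average was taken. Named from each list are up to 4 genes over 2-fold and good on both arrays, largest first, and others were chosen after their values were seen. The members and gene lists were chosen with earlier results of these data known, and 1 listed gene is not reported here.

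Each of 7 pairs of arrays was compared with no test, since each group has 1 array, and the number of arrays limits the precision. Alternatives were the 75th percentile, quantile normalization, cyclic loess and normexp with an offset of 50 (limma 3.58.1 in R 4.3.3), the deposited normalized intensity, other filters, another floor and thresholds of 1.5-fold and 3-fold. The deposited series table was not used, since its rows name no probe. Analysis ran in Python 3.11.15 with pandas 2.3.3 and numpy 2.4.6, and the counting was tested on simulated data.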

Additional observations from a re-analysis of the deposited data

How the results depend on the processing

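Of 70 recounts of members over 2-fold, 49 stayed within 1.5 times the first count and 21 did not. With αERKO against WT with DMBA, 1 member became 0 with normexp, with a floor at the lowest good value or when both spots had to be good, and 3 with no filter. With the array labelled βERKO against WT, 2 became 0 under the first 3 of these and 1 at 3-fold. Between the knockout arrays, 0 became 3 with no filter. With DMBA, 2 became 1 with normexp, the floor or both spots good. From 10 to 24 days, 3 became 0 with normexp or at 3-fold, and 1 with the floor or both spots good. With vitamin D5, 2 became 1 with both spots good, 4 with no filter and 5 at 1.5-fold. Between untreated Balb/c and WT glands, 3 became 1 with normexp or both spots good. The cause was not tested. With both spots good, Hsd11b1 was the only member past 2-fold in any comparison. Hsd11b1 ranged from 2.01 to 2.28 with DMBA, from 0.93 to 1.27 with time, from 1.14 to 1.70 with vitamin D5 and from -2.21 to -1.48 for strain. Its ratio in αERKO glands against WT ranged from -0.38 to 0.03, and those of Hsd17b4 from -0.26 to 0.13 there and from -0.42 to 0.03 between the knockout arrays. Scaling moved the median ratio of all good probes from -0.18 to 0.07 between the knockout arrays and from -0.18 to 0.04 between strains. The share of all probes over 2-fold was 0.623% to 11.9% with normexp and 2.19% to 22.2% with both spots good. The choice of another probe could not be run, as each member has 1. No paired analysis was possible because each group has 1 array.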

Other observations

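Genes of cholesterol synthesis, which supply the substrate of all these enzymes, were measured with 21 probes for 21 listed genes. With vitamin D5 in Balb/c glands, 3 were over 2-fold higher and 1 lower, or 19.0% against 12.2% of all probes, with a median log2 ratio of 0.64 against 0.10 for all probes good on both arrays. With DMBA in WT glands, 4 of 20 tested were higher and 0 lower, or 20.0% against 18.6%, with a median of 0.41 against -0.15. In αERKO glands against WT glands with DMBA, 3 were higher and 6 lower, or 42.9% against 25.8%, and on the array labelled βERKO 0 of 20 passed 2-fold either way, against 15.3%. Insig1, a sterol-regulated brake on the pathway, stood at 0.56 with DMBA and -1.25 without. Cyp51, a demethylase of the pathway, stood at 3.40 in αERKO glands and 4.80 in WT glands with DMBA.

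Peroxisomal beta-oxidation is the other setting in which the HSD17B4 enzyme works. The summed level of its 14 listed genes with a probe lay between 710 and 1101 over the 7 arrays. Acox2, an oxidase of branched chains and bile acid precursors that was chosen for its large ratio, stood at -0.17 in αERKO glands, 2.42 on the array labelled βERKO and 0.53 in WT glands with DMBA, and between 3.66 and 4.40 on the other 4 arrays. With DMBA, 2 of 14 genes were over 2-fold higher and 2 lower, or 28.6% against 18.6% of all probes, and with vitamin D5 0 of 13 passed 2-fold either way, against 12.2%.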
